A study of Mus musculus with 14 samples.

Results

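CD8 T cells were examined in the white nodules of mice with Eif3e, which encodes part of the eIF3 complex that starts translation, deleted in activated B cells, and were compared between nodules profiled for the T cell receptor (TCR nodules) and nodules profiled for the B cell receptor (BCR nodules). A cell was taken as a CD8 T cell when at most 10% of its unique molecular identifiers (UMIs, each standing for 1 captured RNA molecule) were mitochondrial, when it held at least 1 UMI of Cd3d, Cd3e or Cd3g and at least 1 of Cd8a or Cd8b1, and when it held none of Cd4, Cd79a, Cd79b or Ms4a1. In the TCR nodules, cells that carried the commonest T cell receptor beta (TRB) sequence of their library were left out. The rule gave 2168 CD8 T cells of the 75548 cells that passed the mitochondrial filter, out of 77442 deposited. Of these, 1810 lay in the 5 BCR nodules and 358 in the 2 TCR nodules.

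All mice were Eif3e fl/fl with Cre driven from the Ighg1 locus (Cγ1-Cre), on a C57BL/6J background, with a Rosa26-YFP LSL reporter in mice 29, 31, 32 and 34 (the study's list of mice shows none in mice 27, 30 and 33), and no control nodule was sequenced, so that no difference below is a difference from normal tissue. Cre of this strain acts in activated B cells, so the CD8 T cells themselves carried unrecombined floxed alleles by design. The BCR nodules came from mouse 27 (liver, 12 months old), mouse 29 (lung, 12 months), mouse 31 (spleen, 13 months), mouse 33 (thymus, 16 months) and mouse 34 (lung and thymus, 9 months). The TCR nodules came from mouse 30 (liver, 14 months) and mouse 32 (spleen, 12 months). By the study's account, the mouse 27 material was a secondary tumor grown after transfer of a primary liver nodule into a Rag2-/- recipient, a host that makes no T or B cells of its own. Every nodule came from a different mouse, and the organ, age and dominant clone differed along with the group, so their parts cannot be told apart.

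CD8 T cells recognize peptides presented on MHC class I molecules and kill target cells by releasing perforin and granzymes. After activation they pass from naive or memory states, marked by Tcf7 and Ccr7, to effector states with granzymes, Ifng and Ccl5. Under lasting stimulation they acquire inhibitory receptors such as Pdcd1 and the transcription factor Tox. The TRB chain of each cell is assembled from V, D and J segments, and the third complementarity-determining region (CDR3) identifies the clone.

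The CDR3 sequences of the clones that were removed and of the leading clones of the CD8 T cells are shown first, because they separate the counted cells from the dominant clone. They are read 5′ to 3′ from the deposited contigs. Capitals mark the junction, that is the bases between the 5′ run shared with more than 50% of the other TRB sequences of the same V segment and the 3′ run shared with more than 50% of those of the same J segment, over both TCR libraries.
Mouse 30, removed clone, TRBV1 and TRBJ2-1: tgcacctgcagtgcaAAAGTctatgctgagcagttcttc
Mouse 30, commonest CD8 T cell clone, TRBV13-1 and TRBJ2-4: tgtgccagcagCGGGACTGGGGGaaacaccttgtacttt
Mouse 32, removed clone, TRBV26 and TRBJ2-5: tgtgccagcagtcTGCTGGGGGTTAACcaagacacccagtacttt
Mouse 32, commonest CD8 T cell clone, TRBV15 and TRBJ2-1: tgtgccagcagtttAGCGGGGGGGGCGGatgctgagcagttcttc
Mouse 32, second CD8 T cell clone, TRBV12-2 or TRBV13-2 and TRBJ2-3: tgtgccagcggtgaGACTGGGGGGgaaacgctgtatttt
The removed clone was found in 1973 barcodes of the mouse 30 library and in 4794 of the mouse 32 library.

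The nodules gave 110, 268, 69, 1096 and 267 CD8 T cells (mice 27, 29, 31, 33 and 34, the order of all BCR values below) and 70 and 288 in the TCR nodules (mice 30 and 32, in this order). Summed over these cells, the libraries held between 161134 (mouse 30) and 6702855 UMIs (mouse 33), and mouse 33 alone held 1096 of the 1810 CD8 T cells of the BCR nodules. The median per cell ran from 1592 UMIs (mouse 29) to 4631 (mouse 33), with 1925.5 and 4038.5 in the TCR nodules. Between 18.2% and 53.4% of the CD8 T cells of a nodule rested on a single Cd8a or Cd8b1 UMI. Between 2 and 78 of the CD8 T cell barcodes of a nodule also occurred among the barcodes of another library. None of the 1810 CD8 T cells of the BCR nodules carried a contig in the matched B cell receptor library.

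Cd8a and Cd8b1, the chains of the CD8 coreceptor, were required by the rule and stood at 175 to 390 and at 546 to 1003 CPM (UMIs per 1000000 UMIs summed over the CD8 T cells of a nodule) in the BCR nodules, and at 211 and 225 and at 825 and 517 in the TCR nodules. The label was then checked with genes that the rule did not use. Of the 5 CD4 T cell genes, Foxp3, the factor of regulatory T cells, stood at 0 to 1.6 CPM in the CD8 T cells, Il4 at 0 to 14.9 and Cd40lg, which encodes the CD40 ligand, at 0 to 37.2, highest in mouse 30. Cxcr5, a follicle homing receptor, did not run low throughout. It stood at 4.1 to 118 CPM in the CD8 T cells, highest in mouse 31, where CD4 T cells held 82.8. In every other nodule it was lower in CD8 than in CD4 T cells. The 5 genes summed to 8.95 to 153 CPM in the BCR nodules and to 106 and 35.8 in the TCR nodules. Zbtb7b, the CD4 lineage factor, was low in both kinds of T cell, at 0 to 12.4 in CD8 and 0 to 14.4 in CD4 T cells, and does not separate them here. Of the NK cell genes, Ncr1 had no UMI in CD8 T cells of any nodule, but Klrb1c was at 31.7 (47 UMIs) in mouse 32 and at 0 to 1.6 elsewhere. Eomes, listed with them, stood at 140 to 496 in CD8 T cells and at 34.9 to 322 in CD4 T cells. Of the gamma-delta T cell genes, Tcrg-C1 was at 51.3 in mouse 32 and at 0 to 6.2 elsewhere, and Trdc, the delta chain constant segment, at 0 to 10.1. Outside the CD8 T cells, Tcrg-C1 was at 164 in mouse 32 and at 0 to 0.54 elsewhere. Tcrg-C2, a gamma chain constant segment, stood at 36.5 to 99.3 in CD8 T cells of every nodule and at 3.2 to 39.6 in CD4 T cells. The 7 thymocyte genes summed to 0 to 4.9, with Rag1 and Rag2 at 0 in the CD8 T cells of every nodule. Ccl5, a chemokine of effector and memory CD8 T cells, was detected in 52.2% to 97.3% of the CD8 T cells of a BCR nodule and in 67.1% and 89.6% in the TCR nodules, against 2.6% to 40.7% of B cells in the BCR nodules. Median depth was 1592 to 4631 UMIs in the CD8 T cells and 6372 to 9404 in these B cells. With every cell thinned to 500 UMIs, the shares were 47.8% to 88.1% and 55.7% and 78.8% in the CD8 T cells, and 0.22% to 6.41% in the B cells. Ccl5 was high in CD4 T cells too, at 6981, 727, 7846, 13860.5 and 3616 CPM in the BCR and 5104 and 2175 in the TCR nodules. The CD8 T cells held more in every nodule, at 5015 to 16388 and at 6355 and 10535. Ccl5 therefore separates these cells from B cells but only in part from CD4 T cells. Eif3e itself was at 162, 169, 148, 162 and 173 CPM in the CD8 T cells of the BCR nodules and at 112 and 182 in the TCR nodules, with overlapping groups (log2 fold change of TCR over BCR nodules -0.13 ± 0.29 (SE), adjusted p = 0.974, edgeR).

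The first question was how large the CD8 T cell compartment was in each kind of nodule. CD8 T cells made up 1.17%, 1.90%, 0.607%, 11.0% and 3.89% of all cells in the BCR nodules (mice 27, 29, 31, 33 and 34) and 0.668% and 2.15% in the TCR nodules. The share was highest in the thymus nodule of mouse 33, and both TCR values lay within the range of the BCR nodules. The rule leaves out cells with a Cd79a, Cd79b or Ms4a1 UMI, and these lay mostly in BCR nodules. Of the cells with Cd3 and Cd8 but no Cd4 UMIs, it took out 21, 17, 28, 215 and 136, against 0 and 2. Shares with these cells kept were not computed. The means were 3.71% ± 4.25 (SD, n = 5) and 1.41% ± 1.05 (SD, n = 2), a difference of -2.30 percentage points (exact two-sided permutation p = 0.667, Benjamini-Hochberg adjusted over 3 comparisons 0.857). With 2 against 5 nodules there are 21 ways to split them, and the smallest two-sided p this design allows is 0.0952.

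Among cells with a Cd3 UMI the order was different. CD8 T cells were 19.7%, 9.98%, 7.85%, 29.4% and 22.8% of these cells in the BCR nodules and 1.01% and 3.87% in the TCR nodules. Both TCR nodules lay below every BCR nodule, with means of 2.44% ± 2.03 (SD, n = 2) and 17.96% ± 9.00 (SD, n = 5) and a difference of -15.5 percentage points (exact two-sided permutation p = 0.0952, adjusted 0.286), which is the smallest p possible here. The denominator of the TCR nodules holds the dominant T cell clone. When the cells called as that clone were taken out of it, the TCR shares became 1.38% and 9.70%, the mouse 32 nodule then lay above the spleen nodule of mouse 31, and the exact two-sided permutation p was 0.190. Cells of the clone without a TRB call remain in that denominator. Cells left out for a Cd79a, Cd79b or Ms4a1 UMI, mostly of BCR nodules, are in the denominators but not counted as CD8 T cells. Whether the order of mice 31 and 32 holds with them counted was not tested.

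**Figure D1:**
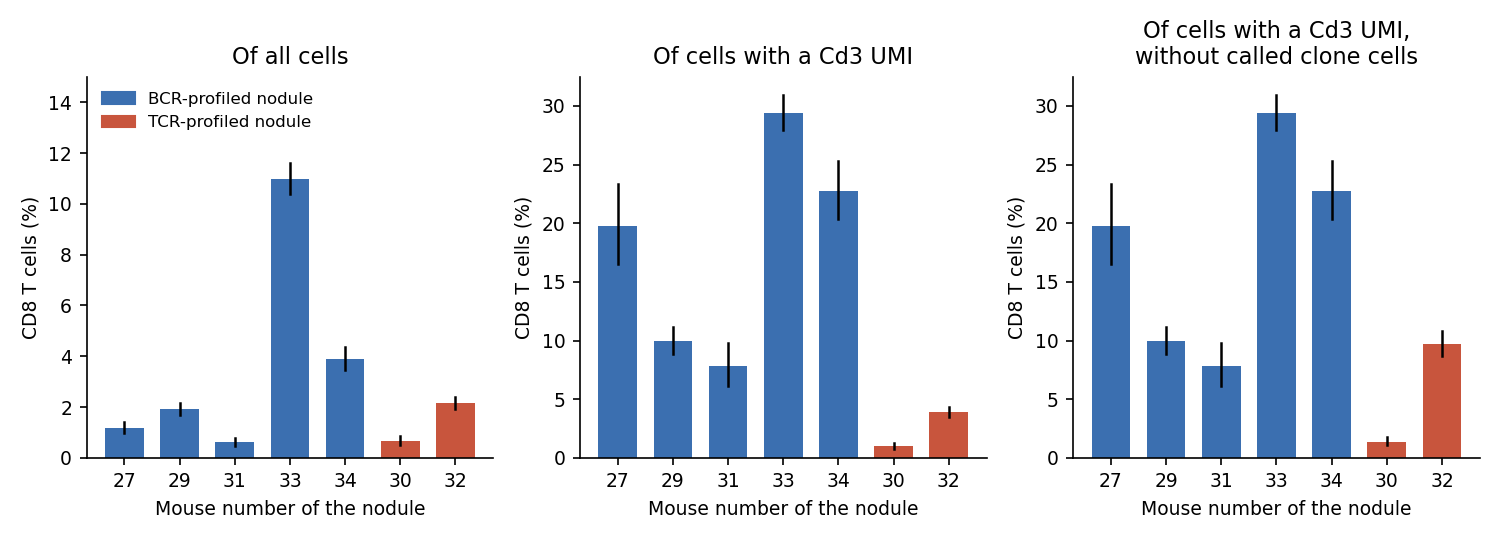
CD8 T cells as a percentage of all cells (left), of cells with at least 1 Cd3 UMI (middle) and of those cells without the cells called as the dominant clone (right), 1 bar per nodule, blue for BCR and red for TCR nodules. Black lines are exact (Clopper-Pearson) 95% binomial intervals, which cover counting error only. In the middle panel the TCR nodules reach 1.01% and 3.87% and every BCR nodule lies above them, and in the right panel mouse 32 reaches 9.70%, above mouse 31.

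The diversity of the CD8 T cells was read from 2 sources. The RNA libraries of all nodules gave the V segment with the most UMIs in each cell. Trbv3 was the commonest segment of the nodules of mice 27 and 33 (38.8% of 67 and 11.0% of 894 cells with a leading segment). Trbv20 led in mouse 29 (18.2% of 110), Trbv14 led in mouse 31 (30.9% of 55) and Trbv13-3 led in mouse 34 (11.0% of 218). Among the TCR nodules, mouse 30 had Trbv13-1 (14.3% of 42) and mouse 32 had Trbv15 (20.6% of 199). The TCR values lay within the BCR range, with means of 17.4% ± 4.47 (SD, n = 2) and 21.97% ± 12.4 (SD, n = 5) and an exact two-sided permutation p of 0.857 (adjusted 0.857). The highest shares, in mice 27 and 31, rested on the fewest cells of the BCR nodules, and their exact 95% intervals were 27.1% to 51.5% (mouse 27) and 19.1% to 44.8% (mouse 31). Among cells with at least 2 Trbv UMIs, Trbv15 and not Trbv20 led in mouse 29 (28.2% of 39). The leading segment of every other nodule stayed the same.

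The V(D)J libraries of the TCR nodules gave full TRB sequences. In mouse 30, 20 of the 70 CD8 T cells had a TRB and these fell into 14 clones, of which 10 were seen in a single cell. The commonest was the TRBV13-1 clone with 4 cells (20%, 95% interval 5.73% to 43.7%). In mouse 32, 133 of 288 CD8 T cells had a TRB and these fell into 83 clones, 72 of them in a single cell. The TRBV15 clone shown above held 36 of the 133 cells (27.1%, 19.7% to 35.5%), and 39 cells of the whole library carried it. In all 23 cells of this clone that had an alpha chain, the alpha chain was TRAV3D-3 with TRAJ11 and the CDR3 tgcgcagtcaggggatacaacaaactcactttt. The second clone of mouse 32 held 6 cells, 2 clones held 3 and 7 held 2, with 1 cell counted in 2 clones. No clone was shared between the CD8 T cells of both mice, and the 95 distinct CDR3 sequences of the 97 clones ran from 30 to 51 bases, all a multiple of the codon length. In 2 cases the same CDR3 was counted as separate clones because the V segment call differed.

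Cells of the dominant clone can stay among the CD8 T cells when no TRB contig was called for them. In mouse 32, Trbv26, the segment of the removed clone, led in 1 of 112 CD8 T cells with a TRB contig (0.893%) and in 23 of 87 without (26.4%). In the BCR nodules, it led in 0% to 4.48%. In mouse 30, Trbv1 led in 1 of 19 with and 4 of 23 without a contig, against 1.82% to 5.82% in the BCR nodules. The comparison was therefore also run with TRB-called cells alone in the TCR nodules (20 and 133 cells), and its values are given below for some of the genes that were high in the rest of a TCR nodule. Several other named genes stood higher in the rest of at least 1 TCR nodule than in the rest of every BCR nodule. With TRB-called cells alone their log2 fold changes were 2.05 for Cd226, 1.36 for Cish, 1.21 for Tbx21, 1.09 for Maf, 1.79 for Ifit3, 0.29 for Ifng, -0.42 for Tcf7, -0.60 for Tox and -0.40 for Pdcd1. This fit gives the TRBV15 clone of mouse 32 more weight, at 200877 of 658704 UMIs against 200877 of 1480741 in all its CD8 T cells. Cd226, Tbx21 and Ifng were higher in that clone than in other cells with a TRB, and Ifit3, Tcf7, Tox and Pdcd1 lower. In the removed clone itself, 2 cells of mouse 30 and 20 of mouse 32 had passed the CD8 gate, 16 of the latter on a single Cd8 UMI.

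**Figure D2:**
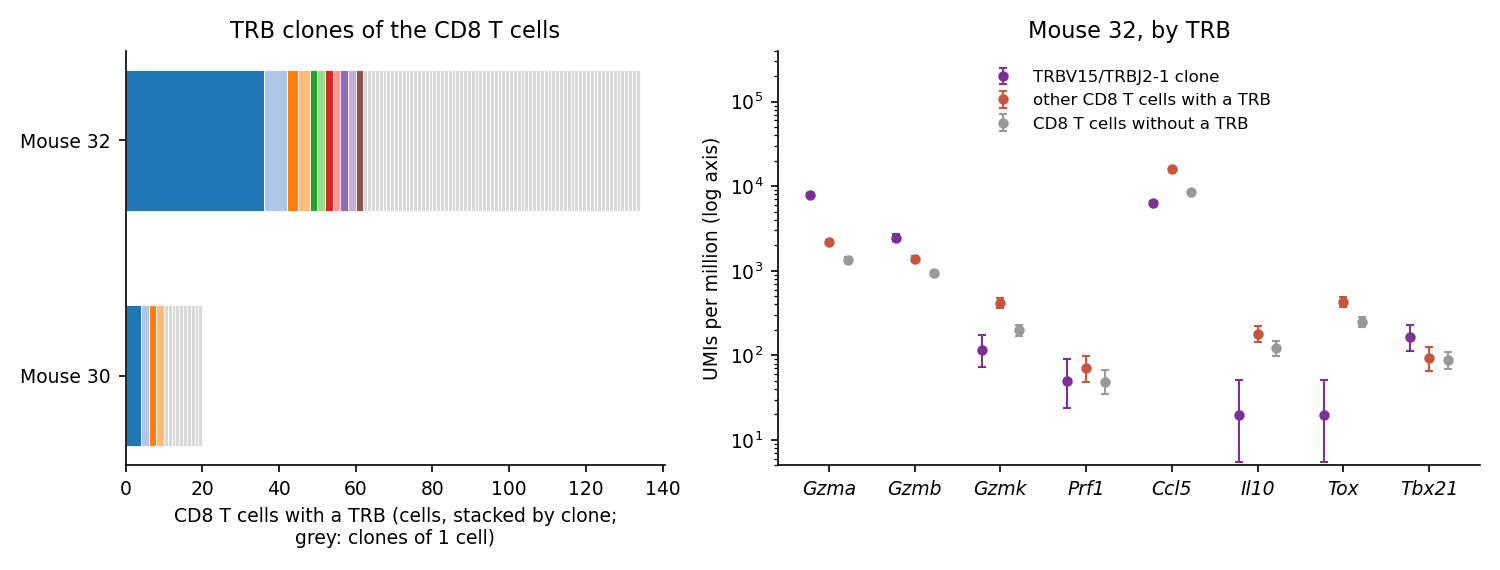
Left, CD8 T cells with a TRB in the mouse 30 and mouse 32 nodules, stacked by clone with clones of 1 cell in grey: 1 block of 36 cells stands out in mouse 32, while the largest of mouse 30 holds 4. Right, CPM (log axis) of 8 genes in the summed cells of the TRBV15 clone, of other CD8 T cells with a TRB and of CD8 T cells without a TRB in mouse 32, with exact Poisson 95% intervals that cover counting error only. Gzma stands at 7940 in the clone and at 2169 and 1355 in the other cells.

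The main comparison asked which genes differed in the CD8 T cells between the kinds of nodule, with UMIs summed per nodule and edgeR's quasi-likelihood test fitted over all genes. No gene passed an adjusted p under 0.05, that is 0% of 7627 genes tested, while 369 genes had an unadjusted p under 0.05 (4.84%), of which 143 were higher (1.87%) and 226 lower (2.96%) in the TCR nodules. DESeq2 called 6 of the same 7627 genes. Counting nodules alone, both TCR nodules lay above all BCR nodules for 461 genes (6.04%) and below all of them for 352 (4.62%). The median log2 fold change over all genes was -0.02, with quartiles of -0.37 and 0.30. These shares are the background for the gene groups that follow, and the lists were chosen with earlier results of these data known. A summed level does not tell fewer expressing cells from less RNA per cell.

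**Figure D3:**
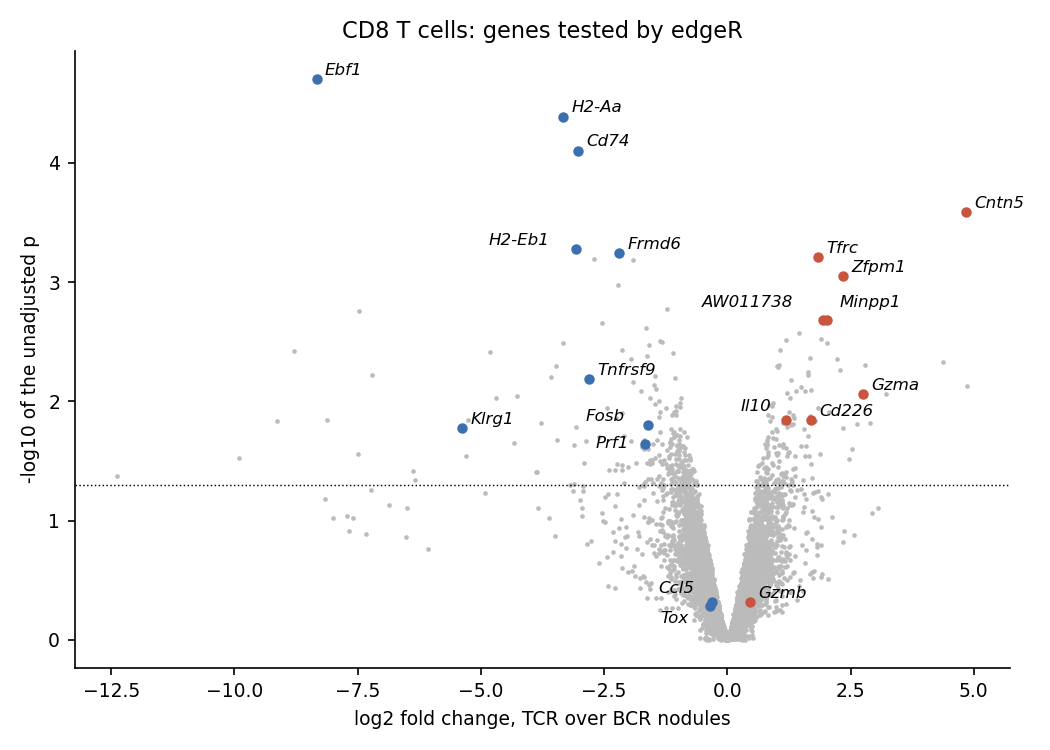
Log2 fold change of TCR over BCR nodules against -log10 of the unadjusted edgeR p for 7627 genes in CD8 T cells, with genes named in the text in red (higher in TCR nodules) or blue (lower) and the dotted line at the unadjusted threshold. Ebf1, H2-Aa and Cd74 have the smallest p on the lower side and Cntn5 on the higher side, and none passes after adjustment.

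Cytotoxic granule genes lay mostly lower, with Gzma and Gzmb on the higher side. Of 14 listed genes 11 were tested, 2 of them higher and 9 lower in the TCR nodules, with a median log2 fold change of -0.37. Gzma, a tryptase-like granzyme, was at 312, 36.0, 632, 148 and 70.2 CPM in the BCR nodules and at 577 and 2500 in the TCR nodules. The mouse 32 value was above every other nodule, while mouse 30 lay below mouse 31 (log2 fold change 2.75 ± 0.86 (SE), adjusted p = 0.921). Without mouse 32 the log2 fold change was 1.24, and with TRB-called cells alone 3.51. The TRBV15 clone of mouse 32, with Gzma at 7940 CPM against 2169 in other cells with a TRB, weighs more among TRB-called cells. Prf1, the pore-forming protein perforin, went the other way, at 264, 42.6, 100, 196 and 139 against 31.03 and 55.4. Only mouse 29 among the BCR nodules reached down into the TCR range (log2 fold change -1.67 ± 0.63 (SE), adjusted p = 0.921).

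Gzmb, which activates caspases in the target cell, was at 385, 262, 578, 1386 and 469 in the BCR nodules and at 428 and 1281 in the TCR nodules, with the highest values in mice 33 and 32 (log2 fold change 0.45 ± 0.62 (SE), adjusted p = 0.953). A Gzmb UMI was found in 17.9% to 79.6% of the CD8 T cells of a BCR nodule and in 22.9% and 71.2% in the TCR nodules, and in 0.02% to 4.53% of B cells in the BCR nodules. In cells thinned to 500 UMIs the ranges were 9.70% to 36.2% and 10% and 37.5%. Gzmk, a granzyme of memory-like effector CD8 T cells, was at 446, 368, 567, 824 and 986 against 465 and 255, and mouse 30 lay within the BCR range (log2 fold change -0.90 ± 0.44 (SE), adjusted p = 0.921).

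Of the 13 cytokine and chemokine genes, 9 were tested, 5 higher and 4 lower, with a median log2 fold change of 0.01. Il10, a cytokine that dampens inflammation, was at 20.3, 78.6, 41.3, 67.9 and 78.7 in the BCR nodules and at 168 and 125 in the TCR nodules. Both TCR nodules were above all BCR nodules (log2 fold change 1.19 ± 0.41 (SE), adjusted p = 0.921). Il10 was also present outside the CD8 T cells, at 103 and 40.9 in the rest of the TCR nodules and 7.5 to 38.0 in the rest of the BCR nodules, and with TRB-called cells alone its log2 fold change was 1.44. Ifng, the main macrophage-activating cytokine of these cells, was at 162, 223, 466, 242 and 272 against 540 and 299, with mouse 32 inside the BCR range (log2 fold change 0.56 ± 0.40 (SE), adjusted p = 0.921). Ccl5 was at 8086, 5015, 11469, 16388 and 10260 against 6355 and 10535, with no separation (log2 fold change -0.31 ± 0.42 (SE), adjusted p = 0.953). Ccl3, a chemokine of recently activated cells, ran from 144 to 613 against 335 and 182.

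The tested NK receptor genes that effector CD8 T cells can share with NK cells lay on the lower side. All 8 tested of 12 listed had a negative log2 fold change, with a median of -0.92 against -0.02 over all genes, and 1 of the 8 had an unadjusted p under 0.05. Klrb1c, of the same list but below the count filter, was higher in mouse 32, as given above. Klrg1, a receptor of terminal effector cells, was at 64.9, 0, 0, 41.9 and 29.6 in the BCR nodules and at 0 and 0.68 in the TCR nodules. The group sums were 332 UMIs and 1 UMI, a ratio of 0.016 with an exact 95% counting interval of 0.00041 to 0.092, but mice 29 and 31 also had none, so the groups overlapped (adjusted p = 0.921, edgeR). Klrd1, the CD94 chain, was at 385, 34.4, 100, 137 and 99.8 against 31.03 and 52.0, and mouse 29 lay between the TCR values. Klrk1, which encodes NKG2D, was at 312, 27.8, 5.9, 87.9 and 36.4 against 18.6 and 38.5. Mouse 27 had the highest level of both genes, and the groups overlapped for both.

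Inhibitory receptors went in both directions. Of 11 listed genes 10 were tested, 4 higher and 6 lower, with a median log2 fold change of -0.29 and none with an unadjusted p under 0.05. Pdcd1, which encodes PD-1, was at 191, 146, 100, 102 and 127 in the BCR nodules and at 130 and 88.5 in the TCR nodules (log2 fold change -0.36 ± 0.33 (SE), adjusted p = 0.933). Havcr2, which encodes TIM-3, was at 759, 134, 159, 346 and 158 against 199 and 123 (log2 fold change -1.03 ± 0.68 (SE), adjusted p = 0.921, edgeR). Entpd1, the ectonucleotidase CD39, was at 81.1, 86.8, 106, 83.7 and 64.3 against 155 and 85.1. For all 3 genes at least 1 TCR nodule lay within the BCR range.

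Among activation and costimulation genes, 13 of 13 were tested, 5 higher and 8 lower, with a median log2 fold change of -0.04. Tnfrsf9, the costimulatory receptor 4-1BB that is induced by receptor engagement, was at 523, 85.1, 76.7, 180 and 110 in the BCR nodules and at 18.6 and 31.1 in the TCR nodules. Both TCR nodules were below all BCR nodules (log2 fold change -2.81 ± 0.83 (SE), adjusted p = 0.921), and DESeq2 called the gene (adjusted p = 0.0355). The rest of the mouse 30 nodule, at 134, was above the rest of every BCR nodule (9.9 to 42.8), and with TRB-called cells alone the log2 fold change was -2.75. Cd226, an adhesion receptor that supports killing, was at 48.7, 27.8, 11.8, 7.9 and 12.7 against 62.1 and 62.8, with both TCR nodules above all BCR nodules (log2 fold change 1.71 ± 0.58 (SE), adjusted p = 0.921). Its level rested on 10 UMIs in mouse 30 and on 12 in mouse 27, the nearest BCR nodule. Cd44, an adhesion molecule of antigen-experienced cells, was at 195, 313, 313, 130 and 88.0 against 137 and 134, within the BCR range.

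All 18 listed transcription factors were tested, 6 higher and 12 lower, with a median log2 fold change of -0.15. Tbx21, which encodes the effector factor T-bet, was at 44.6, 76.9, 17.7, 51.2 and 21.99 in the BCR nodules and at 93.1 and 99.3 in the TCR nodules, so that the groups did not overlap (log2 fold change 1.09 ± 0.47 (SE), adjusted p = 0.921). Its level rested on 15 UMIs in mouse 30 and on 47 in mouse 29, the nearest BCR nodule. Irf4 was the other factor of the list for which both TCR nodules were higher. Eomes, the related factor of memory and exhausted cells, was at 300, 200, 496, 336 and 264 against 285 and 140 (log2 fold change -0.67 ± 0.42 (SE), adjusted p = 0.921). Tox ran from 461 to 1269 in the BCR nodules and was at 1204 in mouse 30 and 274 in mouse 32, a wider gap between the TCR nodules than the width of the BCR range (log2 fold change -0.35 ± 0.53 (SE), adjusted p = 0.962). Nr4a3, a factor induced by receptor signals, was at 203, 201, 201, 212 and 56.7 against 68.3 and 80.4, and only mouse 34 lay at the level of the TCR nodules. Maf was at 349, 252, 254, 77.9 and 118 against 459 and 299.

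Naive and memory genes were tested for 13 of 14 listed, 3 higher and 10 lower, with a median log2 fold change of -0.44 against -0.02 over all genes. Tcf7, the factor TCF-1 of naive and stem-like cells, was at 32.5, 68.8, 307, 22.5 and 159 against 124 and 88.5. Ccr7, a lymph node homing receptor, was at 56.8, 4.9, 88.5, 19.8 and 38.1 against 6.2 and 8.8. Ccr7 was lower in the TCR nodules than in every BCR nodule but that of mouse 29 (log2 fold change -2.10 ± 0.94 (SE), adjusted p = 0.921). The egress receptor S1pr1 ran from 29.4 to 65.1 against 24.8 and 38.5, and the chromatin organizer Satb1 from 81.1 to 155 against 112 and 238.

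Of 15 homing and residency genes 11 were tested, 2 higher and 9 lower (median log2 fold change -0.35). Cxcr3, a receptor for interferon-induced chemokines, was at 16.2, 11.5, 76.7, 36.7 and 50.7 against 6.2 and 22.3, Selplg, the selectin ligand PSGL-1, ran from 116 to 344 against 93.1 and 155, and the collagen-binding integrin Itga1 from 9.3 to 58.9 against 49.6 and 39.2. The groups overlapped for all 3. Itgae, the residency integrin CD103, was below the count filter, with 38 UMIs in all BCR nodules and 0 and 10 in mice 30 and 32. TCR signalling genes, 15 of 15 tested, split into 6 higher and 9 lower with a median of -0.02. The adaptor Lat ran from 111 to 502 against 254 and 250, the constant segment Trac from 123 to 244 against 168 and 82.4, and the phospholipase Plcg1 from 17.7 to 31.3 against 43.4 and 42.5.

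**Figure D4:**
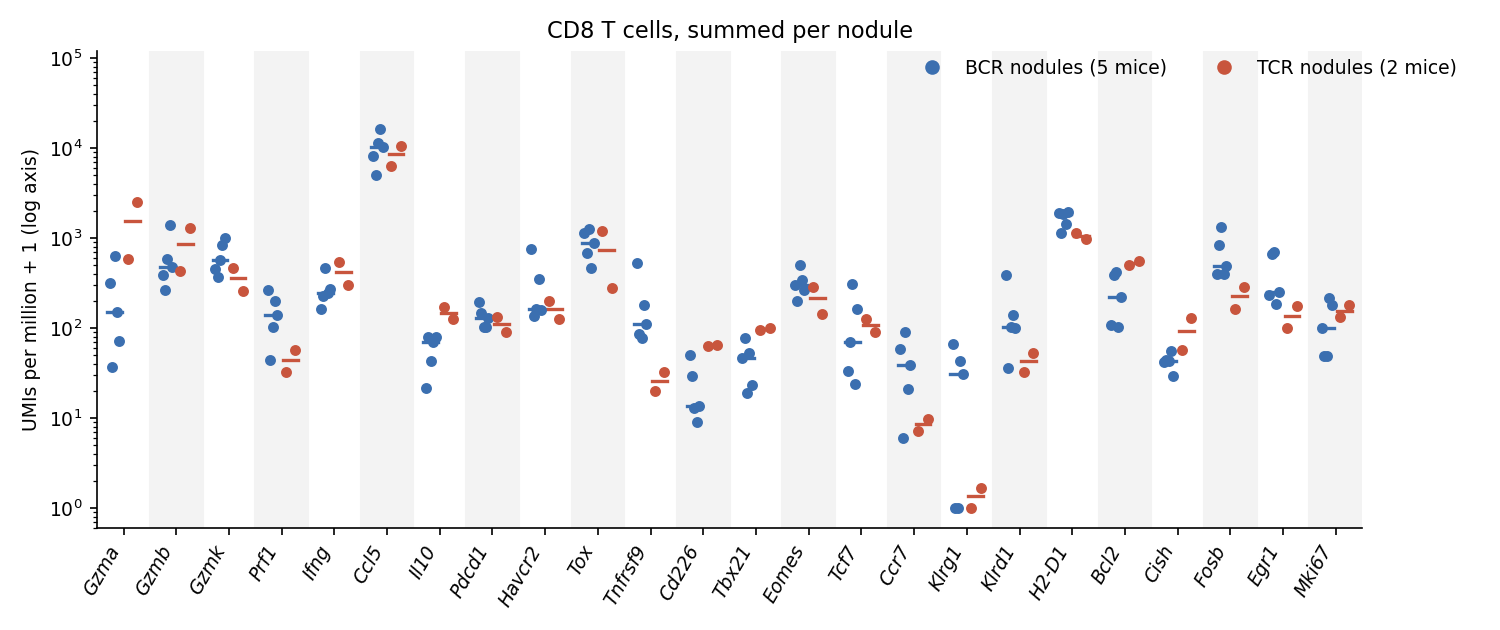
CPM plus 1 (log axis) of 24 genes in summed CD8 T cells, 1 point per nodule, blue for the 5 BCR and red for the 2 TCR nodules, with a bar at each group's median. The groups are apart for Il10, Tnfrsf9, Cd226, Tbx21, H2-D1, Bcl2, Cish, Fosb and Egr1 and overlap for the other 15 genes. H2-D1 is apart only within counting error. Cish, Cd226, Tbx21 and Tnfrsf9 rest on 9, 10, 15 and 3 UMIs in mouse 30. Bcl2 rests on 81 UMIs there against 70 in mouse 31, the nearest BCR nodule. Egr1 is at 172 in mouse 32 against 183 in mouse 33. Whether these gaps exceed counting error was not tested. Over all 7627 genes tested, both TCR nodules were higher for 6.04% and lower for 4.62%. The genes shown were picked with their values known, many as the smallest p of a list, so their share cannot be set against these. Levels are not comparable between genes.

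Immediate early genes, which respond within minutes to receptor signals and to tissue handling, lay mostly lower. All 10 were tested, 2 higher and 8 lower, with a median of -0.43. Fosb was at 398, 833, 1328, 391 and 486 in the BCR nodules and at 161 and 284 in the TCR nodules, and Egr1 at 231, 661, 697, 183 and 246 against 99.3 and 172. Both genes were below all BCR nodules in both TCR nodules (log2 fold changes -1.61 ± 0.56 and -1.54 ± 0.62 (SE), adjusted p = 0.921 for each). Fos ran from 584 to 5773 against 776 and 1416 and overlapped. All nodules were kept in storage solution and dissociated before loading, and the part of that step in these levels was not tested.

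MHC class I presentation genes were lower for 8 of 9, with a median of -0.45, and interferon response genes were lower for 6 and higher for 4 of the 10 tested. H2-D1, a classical class I heavy chain, was at 1870, 1130, 1842, 1428 and 1922 in the BCR nodules and at 1129 and 982 in the TCR nodules. Mouse 30 lay within counting error of mouse 29, the lowest BCR nodule (log2 fold change -0.67 ± 0.30 (SE), adjusted p = 0.921). H2-K1 ran from 853 to 1753 against 838 and 1043, and the immunoproteasome subunit Psmb8 from 156 to 610 against 273 and 242. Of the interferon genes, Irf7 ran from 26.2 to 85.2 against 37.2 and 20.3, and Ifit3 from 11.8 to 64.9 against 199 in mouse 30 and 17.6 in mouse 32, so the TCR nodules themselves lay on opposite sides of the BCR median.

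Survival and cytokine signalling genes were higher for 8 of 11 tested, with a median of 0.26. Cish, a feedback inhibitor induced by cytokines that signal through STAT5, was at 40.6, 42.6, 41.3, 54.0 and 27.9 in the BCR nodules and at 55.9 and 128 in the TCR nodules. The mouse 30 value rested on 9 UMIs and lay just above that of mouse 33 (log2 fold change 1.22 ± 0.38 (SE), adjusted p = 0.921, and 0.29 without mouse 32). Bcl2, which blocks apoptosis, was at 105, 386, 413, 100 and 217 against 503 and 557, with both TCR nodules above all BCR nodules (log2 fold change 1.10 ± 0.53 (SE), adjusted p = 0.921). Its level rested on 81 UMIs in mouse 30 and on 70 in mouse 31, the nearest BCR nodule. Fas, the death receptor, ran from 55.8 to 118 against 192 and 68.2. Proliferation genes, 12 of 12 tested, were higher for 5 and lower for 7 (median -0.10). Mki67, a protein of cycling cells, was at 97.4, 47.5, 47.2, 215 and 178 against 130 and 177, and Birc5, Ccnb2 and Ube2c also overlapped.

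The genes with the smallest p on the lower side were of another kind. Cd74, the invariant chain of MHC class II, was at 223, 314, 620, 323 and 529 in CD8 T cells of the BCR nodules and at 49.6 and 49.3 in those of the TCR nodules. H2-Aa, an MHC class II alpha chain, was at 64.9, 58.9, 94.4, 86.4 and 138 against 6.2 and 9.5. H2-Eb1, a class II beta chain, was at 36.5, 58.9, 88.5, 78.6 and 121 against 0 and 11.5. For all 3 genes every BCR nodule lay above both TCR nodules, with log2 fold changes of -3.04 ± 0.49 (SE, adjusted p = 0.200), -3.33 ± 0.50 (adjusted p = 0.156) and -3.07 ± 0.63 (adjusted p = 0.551) in edgeR, and DESeq2 called all 3. H2-Eb1 had no UMI in mouse 30 and 17 in mouse 32, and without mouse 32 its fitted value was -9.84, which depends on the prior count. The related H2-Ab1 was at 29.5 to 71.0 against 0 and 10.1. Ebf1, a lineage factor of B cells, was at 32.5, 24.6, 17.7, 27.3 and 30.4 in the BCR nodules and had no UMI in either TCR nodule, at least 14.5-fold lower when 3 UMIs over both TCR nodules are taken as the floor (adjusted p = 0.150, edgeR). This bound rests mainly on mouse 32, with 1480741 summed UMIs against 161134 in mouse 30. In mouse 30 alone 3 UMIs stand for 18.6 CPM, above the Ebf1 level of mouse 31.

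The same genes were lower in the rest of the TCR nodules, while within the BCR nodules the order in CD8 T cells followed that in the rest only in part. H2-Aa was lowest in mouse 29 and highest in mouse 34 in both. Cd74 was highest in mouse 31 in the CD8 T cells and in mouse 34 in the rest. Outside the CD8 T cells, Cd74 was at 6438, 917, 7784, 5063 and 11835 in the BCR nodules and at 361 and 119 in the TCR nodules, and Ebf1 at 376, 265, 247, 650 and 672 against 10.6 and 1.1. The whole list of 10 B cell genes summed to 385 to 1027 CPM in the CD8 T cells of the BCR nodules and to 130 and 70.2 in the TCR nodules. All 6 genes of that list that were tested were lower in the TCR nodules, with a median log2 fold change of -3.18, although Cd79a, Cd79b and Ms4a1 were at 0 in every cell by the rule. CD4 T cells of the same nodules, taken with Cd4 in place of the Cd8 genes and, in the TCR nodules, with a TRB other than the dominant one required, gave 139, 291, 651, 347 and 379 for Cd74 against 103 and 92.8, and no Ebf1 UMI in the TCR nodules. How much of the level in CD8 T cells came from RNA of other cells was not tested.

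**Figure D5:**
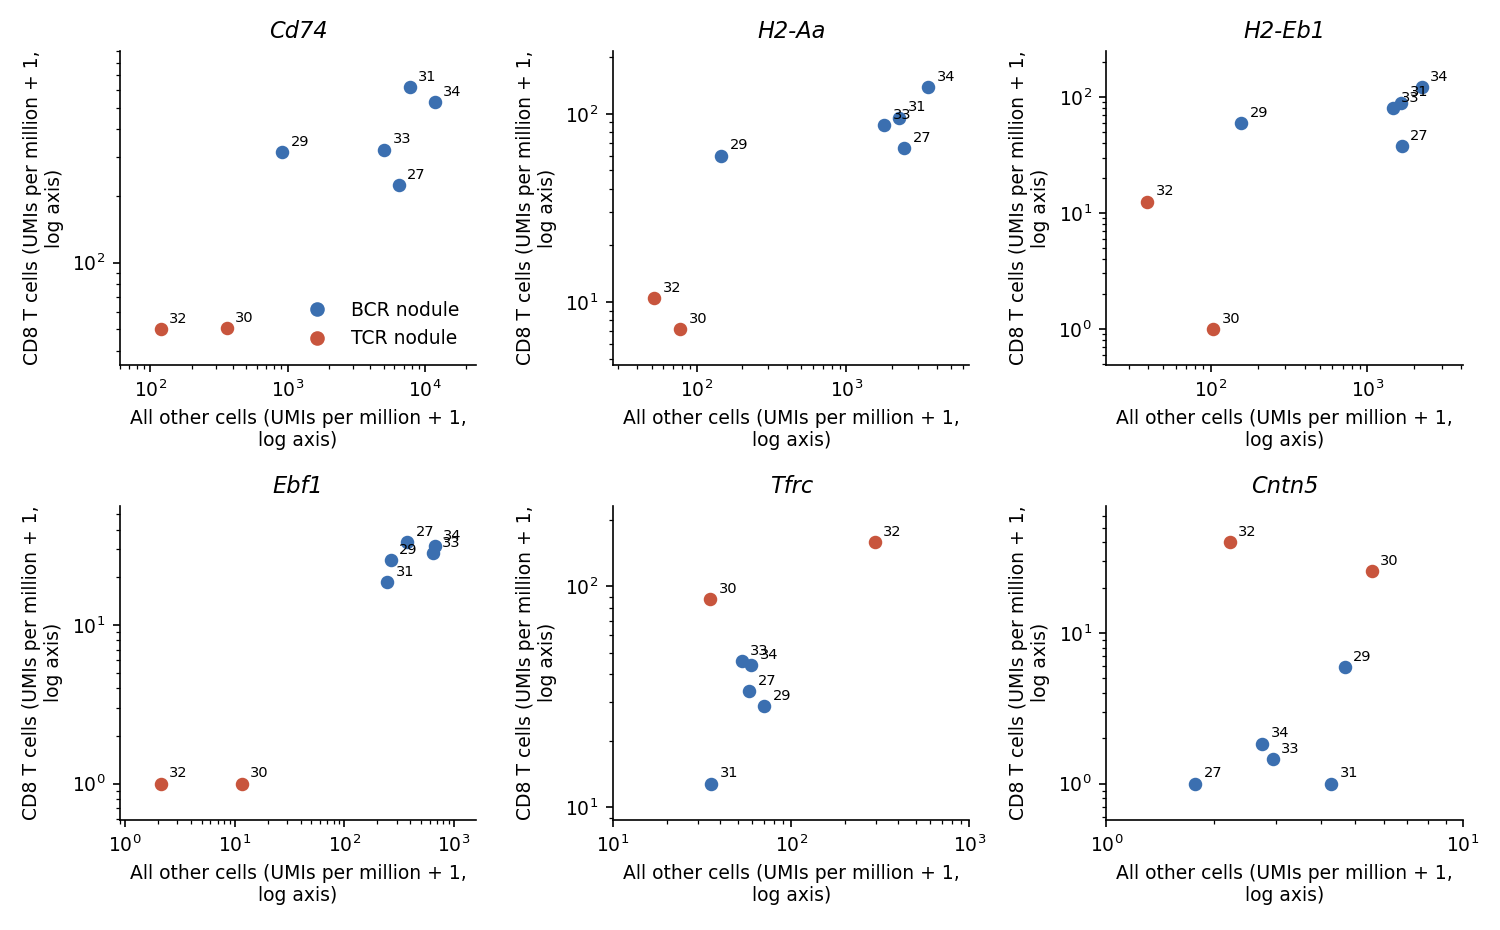
Level in the summed CD8 T cells against the level in all other cells of the same nodule, both as CPM plus 1 on log axes, 1 point per nodule with its mouse number, blue for BCR and red for TCR nodules. For Cd74, H2-Aa, H2-Eb1 and Ebf1 the TCR nodules are lowest on both axes. For Tfrc mouse 32 is highest on both axes, and for Cntn5 the TCR nodules are highest in CD8 T cells while mouse 32 lies low in the rest.

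Macrophage genes lay lower as well. C1qa, C1qb and C1qc, which encode the complement component C1q, were at 1.6 to 146, 0 to 110 and 5.9 to 114 in the BCR nodules, highest in mouse 27 in each case, and had 0 to 2.7 in the TCR nodules. The 7 macrophage genes summed to 106 to 641 against 18.6 and 43.2. The share of CD8 T cells with a UMI of these genes overlapped between the groups, at 2.73% to 23.8% against 4.29% and 9.03%. It was lowest in mouse 27, which had the highest sum. The marker Adgre1 was at 0 in the CD8 T cells of every nodule. It was also only at 0.56 to 6.6 CPM in the rest of the nodules, too low for its absence to be informative. Neutrophil and erythroid genes were high in single nodules of both groups. The 6 neutrophil genes summed to 3507, 1314 and 155 CPM in mice 29, 32 and 30 and to at most 16.2 in the other nodules. The 6 erythroid genes summed to 1374 and 1769 CPM in mice 29 and 32 and to at most 32.1 in the other nodules. A further fit left out cells with a UMI of S100a8, S100a9, Lyz2, C1qa, C1qb, C1qc, Hbb-bs, Hbb-bt, Hba-a1 or Hba-a2. Below it is named the fit without neutrophil, macrophage or erythroid UMIs, although the other genes of these lists were not used. Between 48 and 886 CD8 T cells per nodule remained, and edgeR still called 0 genes (320 with an unadjusted p under 0.05). The log2 fold change was -2.58 for Cd74, 2.999 for Gzma, and 1.03 for Tfrc. Frmd6, which encodes a FERM domain protein, completed the 5 with the smallest p on the lower side, at 40.6, 42.6, 29.5, 35.7 and 31.3 against 12.4 and 6.8 (log2 fold change -2.19 ± 0.45 (SE), adjusted p = 0.551).

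On the higher side the smallest p belonged to Cntn5, a neural adhesion molecule of the contactin family, at 0, 4.9, 0, 0.45 and 0.85 in the BCR nodules and at 24.8 and 39.2 in the TCR nodules. The counts behind these levels were 7 UMIs over all BCR nodules and 4 and 58 in the TCR nodules (log2 fold change 4.84 ± 0.90 (SE), adjusted p = 0.490), and DESeq2 called the gene (adjusted p = 0.0263). Leaving out single nodules moved its log2 fold change between 4.08 (without mouse 33) and 5.89 (without mouse 29), with no value without mouse 32, where it did not pass the count filter, and edgeR called it without mouse 29 (adjusted p = 0.0134). It was at 4.6 and 1.2 in the rest of the TCR nodules and at 0.78 to 3.7 in the rest of the BCR nodules, and CD4 T cells held 0 and 9.3 in the TCR nodules and up to 29.6 in the BCR nodules. In mouse 32 it was at 91.7 in CD8 T cells with a TRB other than the TRBV15 clone, at 29.9 in that clone and at 12.2 in cells without a TRB.

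Tfrc, the transferrin receptor through which growing cells take up iron, was at 32.5, 27.8, 11.8, 44.9 and 43.1 against 86.9 and 158, with both TCR nodules above all BCR nodules (log2 fold change 1.84 ± 0.39 (SE), adjusted p = 0.551, and 1.19 without mouse 32). Zfpm1, a cofactor of GATA factors, was at 8.1, 4.9, 0, 9.0 and 10.1 against 31.03 and 45.9 (2.36 ± 0.52 (SE), adjusted p = 0.683). Minpp1, an inositol polyphosphate phosphatase, was at 4.1, 8.2, 17.7, 9.7 and 13.5 against 18.6 and 57.4 (2.03 ± 0.50 (SE), adjusted p = 0.921). Its levels in mouse 30 and in mouse 31, the nearest BCR nodule, rested on 3 UMIs each. The rest of the mouse 32 nodule held these 3 genes at 294, 91.7 and 164, above the rest of every other nodule. Within its CD8 T cells they were at 221, 64.5 and 80.3 in cells without a TRB. In the TRBV15 clone they were at 114, 24.9 and 54.8, and in other cells with a TRB at 63.3, 21.8 and 17.5. With TRB-called cells alone the log2 fold changes were 1.34, 1.73 and 1.33. AW011738 was at 12.2, 29.5, 59.0, 18.4 and 18.6 against 137 and 68.2 (1.94 ± 0.48 (SE), adjusted p = 0.921), and at 136 and 39.0 in the rest of the TCR nodules against 2.1 to 16.9. With TRB-called cells alone its log2 fold change was 2.08.

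Whether the groups differed in CD8 T cells beyond what CD4 T cells of the same nodules showed was tested with the nodule as a block. CD4 T cells numbered 113, 367, 129, 710 and 144 in the BCR nodules and 100 and 49 in the TCR nodules, where only cells with a TRB other than the dominant one were taken. Of 7919 genes 0% were called in edgeR, 351 (4.43%) lay under an unadjusted p of 0.05, and DESeq2 called 0 and gave 184 at that level. The smallest p belonged to 3 interferon-gamma-inducible GTPases. Gbp5 was at 44.6, 21.3, 100, 102 and 29.6 in CD8 T cells of the BCR nodules and at 62.1 and 45.2 in the TCR nodules, while CD4 T cells were at 69.3, 16.9, 119, 119 and 48.2 against 204 and 329. In CD4 T cells both TCR nodules lay above all BCR nodules, and in CD8 T cells they lay within the BCR range (interaction log2 fold change -2.26 ± 0.36 (SE), adjusted p = 0.158). The interaction was -2.27 ± 0.40 for Gbp2 (adjusted p = 0.220) and -2.95 ± 0.55 for Iigp1 (adjusted p = 0.256). In CD4 T cells Iigp1 was at 269 in mouse 32 but at 19.1 in mouse 30, within the BCR range of 3.6 to 50.1, and its interaction was -0.18 without mouse 32. Gbp2 was at 139 in CD4 T cells of mouse 32 and at 46.3 in mouse 30, again within the BCR range. Without mouse 30, edgeR gave an adjusted p of 0.0397 for Gbp5 and for Iigp1. Gzma gave 0.87 ± 0.70, as its level in CD4 T cells was also highest in mouse 32, at 292 against 3.6 to 71.8 in the other nodules.

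Within mouse 32 the TRBV15 clone of 36 cells was set beside the other CD8 T cells. This is a comparison of cells from 1 library with no replicate, the genes shown were picked by the rule for named genes with their values known, and the intervals cover counting error only. Gzma was at 7940 CPM in the clone (95% interval 7555 to 8340), at 2169 (2036 to 2308) in other CD8 T cells with a TRB and at 1355 (1277 to 1437) in those without. Gzmb was at 2464, 1387 and 933. In the opposite direction, Ccl5 was at 6357 in the clone and 15886 in the other cells with a TRB, Gzmk at 114 and 417, and Tox at 19.9 (5.4 to 51.0) and 426 (368 to 490). Il10 was at 19.9 and 179, and Tcf7 was at 14.9 and 100. Cd226 was at 189 in the clone and 54.6 in the other cells with a TRB, and Tbx21 at 164 and 91.7. Taking the clone out of the comparison of nodules lowered the log2 fold change of Gzma from 2.75 to 2.28 and that of Cd226 from 1.71 to 1.39.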

How the data were processed

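Single-cell RNA and V(D)J libraries were made from white nodules of 7 mice (SeekGene droplet kits), and the authors deposited raw UMI counts per gene and cell and V(D)J contigs with UMI and read counts. The build is GRCm38 (mm10) per the labels, and the annotation holds 32285 genes. The aligner of the RNA reads is not given in the sources used here. The end of the transcript that was read is not settled, since the labels' V(D)J account names a 5′ kit and the study's methods a 3′ kit for RNA. Groups follow the receptor named in the labels of each mouse's V(D)J library. Cells were gated as described above, and no doublet caller was run. UMIs were summed per nodule and tested with edgeR 4.0.16 (TMM, filterByExpr, quasi-likelihood test, Benjamini-Hochberg adjustment over all tested genes), and DESeq2 1.42.0 served as an alternative. Genes of the gate and mitochondrial genes stayed in library sizes and were not tested. Levels are CPM and SE is on the log2 scale. Shares were compared by exact permutation over nodules. On simulated data with this design, edgeR recovered 53% of genes changed by a log2 fold of 2 and 94% of those changed by 4, with 9 false calls among 7418 genes. The simulation gave every gene the same spread between nodules (edgeR's common dispersion, 0.143). These percentages therefore do not hold for genes that vary more between nodules. The CD8 gate, the gene lists and the genes named were chosen with earlier results of these data known. Named genes are the 5 with the smallest p in each direction since none passed (receptor segments and unnamed gene models aside), the 3 with the smallest p of each list, 16 fixed CD8 T cell genes (1 more is not reported here) and the 3 with the smallest p against CD4 T cells. Irf4, Klrb1c, Tcrg-C1, Tcrg-C2, Trdc, the CD4 T cell genes, the C1q genes and H2-Ab1 were added after their values were seen.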

Additional observations from a re-analysis of the deposited data

Results flagged for a closer look

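In 6 of 65 named values 1 of the 5 BCR nodules stood apart from the other 4 by more than Dixon's 95% limit of 0.71 of the range, where chance gives about 3.25. Klrk1 was at 312 CPM in the CD8 T cells of mouse 27 against 87.9 in the next nodule, and Tnfrsf9 at 523 in the same nodule against 180. Mouse 29 was high for Cntn5, at 4.91 (3 UMIs) against 0.85, and for Itga1, at 58.9 against 23.6. Gzmb was at 1386 in mouse 33 against 578. Nr4a3 was at 56.7 in mouse 34, with the next lowest BCR nodule at 201. Groups of 2 TCR nodules cannot be examined in this way.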

How the results depend on the processing

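The count of called genes, 0 in edgeR, was 6 with DESeq2 (1 higher, 5 lower) and 31 of 18721 genes with no filter on low counts (23 higher, 8 lower). It stayed at 0 with RLE scaling, stricter gates, cells without gamma-delta, NK or thymocyte UMIs, TRB-called cells, thinned sums, nodules without thymus, liver and spleen nodules with site as a block, and both alternatives chosen after seeing the data (without cells holding neutrophil, macrophage or erythroid UMIs, and without the commonest TRB of the CD8 T cells). Leaving out single nodules gave 0 to 10 calls: 10 without mouse 29, among them Camp, Ngp, S100a8 and S100a9, and 10 without mouse 30, among them Car1 and Stfa3, where the lone TCR nodule is assumed to vary like the others. The difference against CD4 T cells gave 24 calls with no filter on low counts and 0 to 4 with single nodules left out (3 without mouse 30, 4 without mouse 32). No paired analysis was possible because the groups share no mouse number, which links only the RNA and V(D)J library of a nodule.

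Differences in shares and in the commonest segment kept their direction under every alternative. Of 1192 re-estimates of named genes 29 changed sign, and 51 of 64 values never did. TRB-called cells alone gave 0.13 for Ccl3, 0.042 for Ccl5, 0.022 for Eif3e and 0.16 for Gbp5. Nodules without thymus gave 0.015 for Birc5, 0.15 for Ube2c, 0.0647 for Ccl5 and 0.064 for Gbp5. The gate of 2 UMIs gave 0.13 for Ccl5, -0.15 for Mki67 and 0.21 for Gbp5, and the Cd8b1 gate 0.055 for Tcf7 and -0.0798 for Mki67. Cells without gamma-delta or NK UMIs gave 0.020 for Tcf7 and -0.41 for Mki67, and cells without neutrophil, macrophage or erythroid UMIs -0.46 for Mki67 and 0.28 for Gbp5. With single nodules left out, the log2 fold change ran from -0.41 to 0.48 for Tcf7, -0.53 to 2.86 for Ifit3, -0.10 to 1.15 for Satb1, -0.26 to 1.09 for Fas, -0.67 to 1.06 for Gzmb, -0.81 to 0.069 for Ccl5, -1.65 to 0.34 for Tox, -0.050 to 0.72 for Mki67, -0.66 to 0.19 for Eif3e and -0.49 to 0.27 for Gbp5. The cause of these changes was not tested. The 2 TCR nodules, with 70 and 288 CD8 T cells, limit every comparison.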
